A study of Mus musculus with 6 samples.

Results

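The 9 genes described here encode the core machinery that fuses and divides mitochondria, together with the protease OMA1: Mfn1, Mfn2, Opa1, Oma1, Dnm1l, Fis1, Mff, Mief1 and Mief2. They were chosen by name, from their roles, out of the 46452 genes of the deposited table, with earlier results of these data known. Each name matched 1 row, and all 9 were among the 11996 genes that passed the filter of a mean of at least 1 FPKM (fragments per kilobase of gene, corrected for library size). The values come from whole hearts of 10-day-old mice, in 3 libraries labelled Nat10-CKO, which names a conditional knockout of Nat10, the gene of an RNA acetyltransferase, and 3 libraries labelled Nat10 flox/flox, which carry loxP-flanked Nat10 alleles. The labels name 3 independent biological replicates a group and give no Cre driver, no deleted exon and no sex. The series asks what NAT10 does in the developing heart.

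Mitochondria join by fusion and split by fission. The mitofusins MFN1 and MFN2 fuse the outer membrane and OPA1 fuses the inner membrane, while the cytosolic dynamin DRP1, the product of Dnm1l, constricts mitochondria after adaptor proteins in the outer membrane (MFF, FIS1, and MiD51 and MiD49 from Mief1 and Mief2) bring it there. OMA1 is a stress-activated protease of the inner membrane that cuts OPA1 from its long, fusion-active forms to short forms. In human cells it also cuts DELE1, whose fragment activates the eIF2 kinase HRI. Heart muscle is dense in mitochondria, and loss of mitofusins, OPA1 or DRP1 from mouse heart muscle is known to damage the heart. Messenger RNA levels, as measured here, say nothing of the cleavage of OPA1 or the placing of DRP1.

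Of the 9 genes, Opa1 fell and Mief1 and Mff rose in the libraries labelled Nat10-CKO, while the other 6 did not pass the test. The test was limma on log2(FPKM + 1) over all 11996 genes, with a Benjamini-Hochberg adjusted p under 0.05 as the threshold. Over all tested genes 40.5% passed, 24.4% higher and 16.0% lower, so 3 calls among 9 genes are close to the background of these libraries and are no result about the set. The groups did not overlap for 5 of the 9 genes (Opa1, Mief1, Mff, Dnm1l and Oma1), against 55.9% of all tested genes. The median log2 fold change of the 9 genes was 0.20, beside 0.03 for all tested genes. Both backgrounds depend on level. Over the 7224 genes with a mean of at least 5 FPKM, 3464 were called and the median was 0.12.

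**Figure D1:**
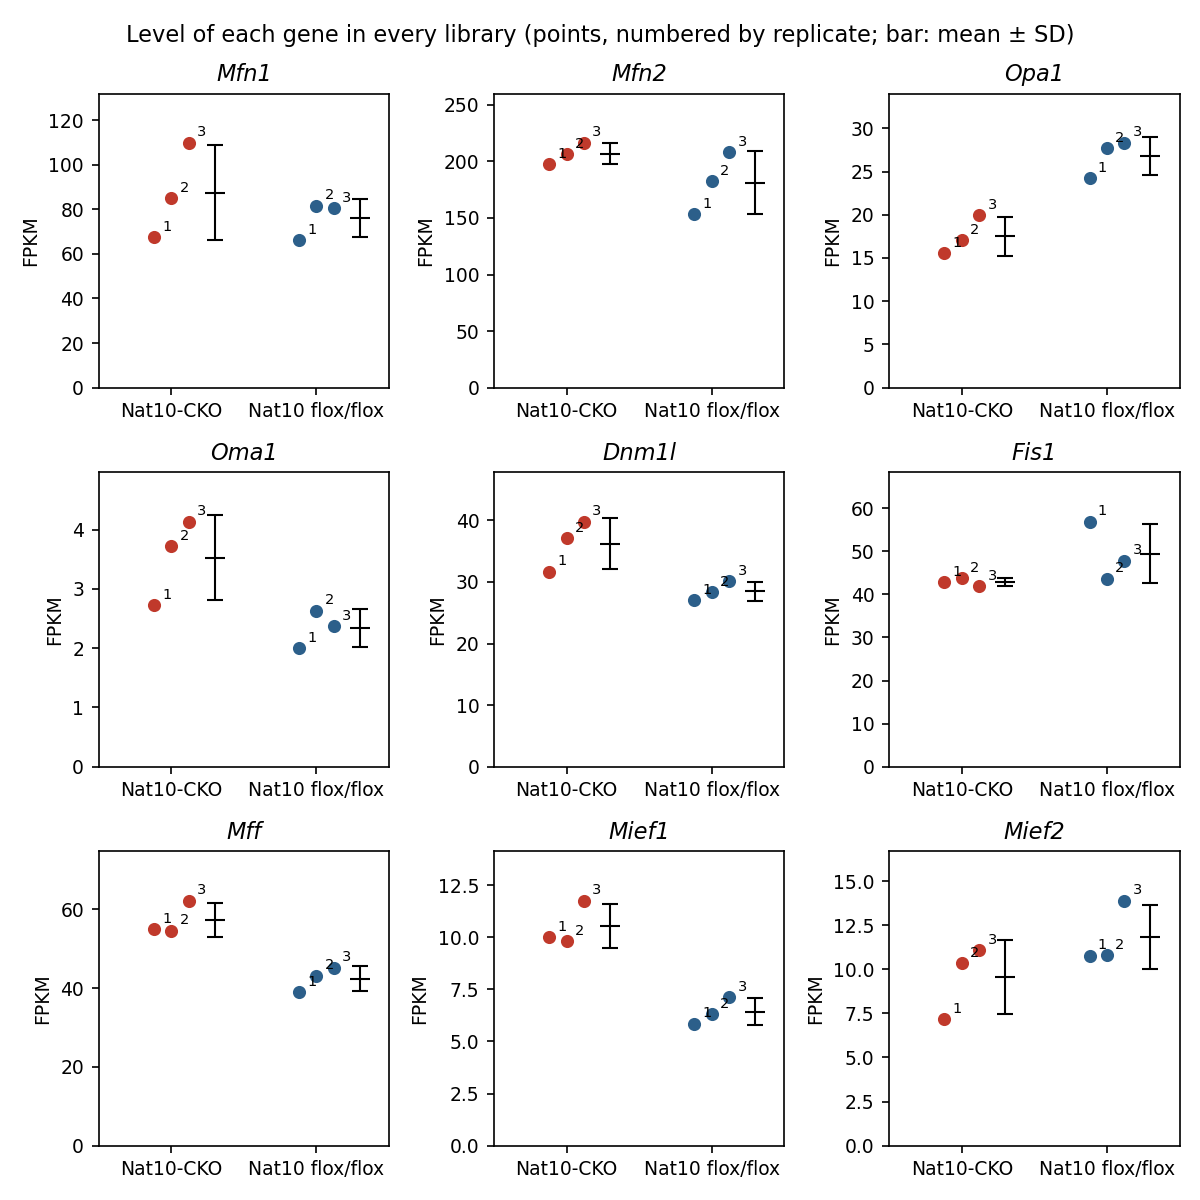
Level of the 9 genes in every library, in FPKM on a linear axis from 0, with the libraries labelled Nat10-CKO on the left and those labelled Nat10 flox/flox on the right. Points are libraries numbered by replicate and bars are means ± SD (n = 3 a group): the groups separate for Opa1, Oma1, Dnm1l, Mff and Mief1 and overlap for Mfn1, Mfn2, Fis1 and Mief2.

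The target gene went against the label. Nat10 had 8.28, 8.66 and 10.2 FPKM in libraries labelled Nat10-CKO, against 3.75, 4.18 and 4.71 FPKM in those labelled Nat10 flox/flox (adjusted p = 0.00142 by limma, log2 fold change 0.94 ± 0.12 SE). These are values per whole gene, and reads from outside a deleted part cannot be told apart in them. Whether labels were exchanged was not tested. An exchange would turn every direction below, and each refers to the labels as given. Recovered reads in genes numbered 31155521 to 38051266 a library. Reads of mitochondrially encoded genes made up 7.56% to 9.26% of the total in the libraries labelled Nat10-CKO and 16.6% to 18.3% in those labelled Nat10 flox/flox. The first principal component (68.2% of variance) separated the labels. The second (14.7%) set Nat10 flox/flox replicate 1 apart from the rest. The third (10.5%) had Nat10-CKO replicates 1 and 3 at its opposite ends (-27.4 and 20.8).

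The heart label held against its markers, since all 6 heart muscle markers were expressed in every library. Their summed level was 9759 to 16629 FPKM in libraries labelled Nat10-CKO and 15271 to 18749 FPKM in those labelled Nat10 flox/flox, with 1 of the 6 genes (Tnni3) called lower and 0 higher. Actc1 and Ryr2 were also lower with no overlap between groups, but were not called (adjusted p = 0.102 and 0.0703 by limma). Endothelial markers were lower for 5 of 5 genes, with sums of 140.3 to 152 FPKM in libraries labelled Nat10-CKO and 245 to 299 FPKM in those labelled Nat10 flox/flox. Erythroid markers were lower for 5 of 5 genes (423 to 535 FPKM under the Nat10-CKO label against 689 to 1780 FPKM under the Nat10 flox/flox label) and smooth muscle and pericyte markers for 2 of 4 (99.1 to 109 FPKM under the Nat10-CKO label against 165 to 203 FPKM under the Nat10 flox/flox label). Of the fibroblast and macrophage markers 0 of 6 and 0 of 5 were called by limma (2 and 0 at an unadjusted p under 0.05, 1 and 0 by limma-voom), with sums of 323 to 504 FPKM and 213 to 249.6 FPKM in libraries labelled Nat10-CKO, against 303 to 339 FPKM and 209.7 to 285 FPKM in those labelled Nat10 flox/flox. The 2 fibroblast genes under that unadjusted p went opposite ways, Dcn higher and Lum lower in libraries labelled Nat10-CKO. No marker was at 0 in any library. Their part in the changes below was not tested, and in whole tissue fewer cells of a type and less RNA per cell cannot be told apart.

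The bases before a RefSeq transcription start of 4 of the genes are shown here because they are the gene that fell (Opa1), its protease (Oma1) and the adaptor pair compared by ratio below (Mief1, which rose, and Mief2, which did not pass). Each is the 250 bases before a RefSeq start, from windows of 300 bases made on GRCm38.p6 and placed on GRCm39 by exact match, on the plus strand and written 5′ to 3′. Capitals mark the motifs found, which are the NRF1 motif in Opa1 and Oma1 and the E-box (CACGTG) in Mief2, and Mief1 holds none of those searched. They lie at chr16:29397902-29398151, chr4:103170793-103171042, chr15:80118031-80118280 and chr11:60618974-60619223 in the order printed. The Oma1 stretch and the end of the Opa1 stretch lie inside the genes as deposited, which begin farther upstream.
Opa1: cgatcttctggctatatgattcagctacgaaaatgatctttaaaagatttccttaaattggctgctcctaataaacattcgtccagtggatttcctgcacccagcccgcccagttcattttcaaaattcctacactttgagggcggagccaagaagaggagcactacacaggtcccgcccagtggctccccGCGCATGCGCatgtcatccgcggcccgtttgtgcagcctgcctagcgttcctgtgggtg
Oma1: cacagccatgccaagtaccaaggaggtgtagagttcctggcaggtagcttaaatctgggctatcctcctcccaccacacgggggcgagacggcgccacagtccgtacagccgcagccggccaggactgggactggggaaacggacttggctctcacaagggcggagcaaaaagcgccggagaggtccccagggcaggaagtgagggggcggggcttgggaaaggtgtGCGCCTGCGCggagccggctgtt
Mief1: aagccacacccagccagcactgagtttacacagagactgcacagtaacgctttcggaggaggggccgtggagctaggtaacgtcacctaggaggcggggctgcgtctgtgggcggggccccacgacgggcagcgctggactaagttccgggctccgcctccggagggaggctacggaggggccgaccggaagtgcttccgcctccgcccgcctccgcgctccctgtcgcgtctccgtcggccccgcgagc
Mief2: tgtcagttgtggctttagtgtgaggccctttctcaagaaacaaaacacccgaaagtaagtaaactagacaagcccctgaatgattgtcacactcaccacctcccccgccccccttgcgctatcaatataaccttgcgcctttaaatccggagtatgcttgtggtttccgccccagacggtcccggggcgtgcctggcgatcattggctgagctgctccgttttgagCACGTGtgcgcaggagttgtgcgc

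NRF1 is a transcription factor of many nuclear genes for mitochondrial proteins. Its motif stood in 4.60% of all 32851 RefSeq promoter windows and in 2 of the 14 windows of the 9 genes, 1 of Opa1 and 1 of Oma1. Opa1 was called lower, and Oma1 was not called (adjusted p = 0.0615 by limma). Any part of NRF1 in the level of either gene was not tested. The E-box stood in 7.15% of windows and in 1 of the 14, that of Mief2. The estrogen-related receptor motif (TCAAGGTCA, 0.423% of windows), the cyclic AMP response element (TGACGTCA, 1.79%) and the C/EBP-ATF composite motif (TGATGNAA, 3.97%) stood in 0 of the 14. All motifs were searched on both strands, and a match or its absence is a description of these letters in these windows.

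Opa1 (gene ID 74143, plus strand of chromosome 16 from 29398099 to 29481924, GRCm39) encodes the dynamin-like GTPase that fuses the inner membrane and shapes cristae. Its level was 15.5, 17.1 and 19.97 FPKM in libraries labelled Nat10-CKO, against 24.3, 27.7 and 28.4 FPKM in those labelled Nat10 flox/flox. All 3 libraries labelled Nat10-CKO lay under all 3 of the others. The means were 17.5 ± 2.24 and 26.8 ± 2.19 FPKM (SD, n = 3 a group), a 1.53-fold lower level. The log2 fold change was -0.59 ± 0.13 (SE; 95% interval -0.89 to -0.29, adjusted p = 0.0112 by limma). Opa1 stayed lower and past the threshold under all 17 alternatives run, with log2 fold changes of -0.82 to -0.44 and adjusted p of 0.00233 to 0.0471.

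The mitofusin genes did not pass. Mfn1 (gene ID 67414, plus strand of chromosome 3 from 32583594 to 32633374) had 67.6, 84.9 and 109.9 FPKM in libraries labelled Nat10-CKO, against 66.1, 81.6 and 80.6 FPKM in those labelled Nat10 flox/flox. The groups overlapped, and Nat10-CKO replicate 3 was the highest of the 6 libraries. Its log2 fold change was 0.18 ± 0.20 (SE; 95% interval -0.29 to 0.65, adjusted p = 0.5003 by limma), and its sign turned under quantile normalization (-0.019) and without Nat10-CKO replicate 3 (-0.00017). Reads of Mfn1 are uncertain where it overlaps Gnb4 on the opposite strand (1.46 to 1.57 FPKM in libraries labelled Nat10-CKO and 2.91 to 4.86 FPKM in those labelled Nat10 flox/flox), since the strand setting of the counting is not given.

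Mfn2 (gene ID 170731, minus strand of chromosome 4 from 147958043 to 147989527), whose protein also tethers mitochondria to the sarcoplasmic reticulum, was the most abundant of the 9 genes per length in both groups. It had 198, 206 and 217 FPKM in libraries labelled Nat10-CKO, against 153, 183 and 208 FPKM in those labelled Nat10 flox/flox. The ranges overlapped at Nat10 flox/flox replicate 3. Its log2 fold change was 0.20 ± 0.15 (SE; 95% interval -0.15 to 0.55, adjusted p = 0.311 by limma). The intervals of both mitofusin genes hold 0 but do not exclude changes of about the size seen for Mff.

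**Figure D2:**
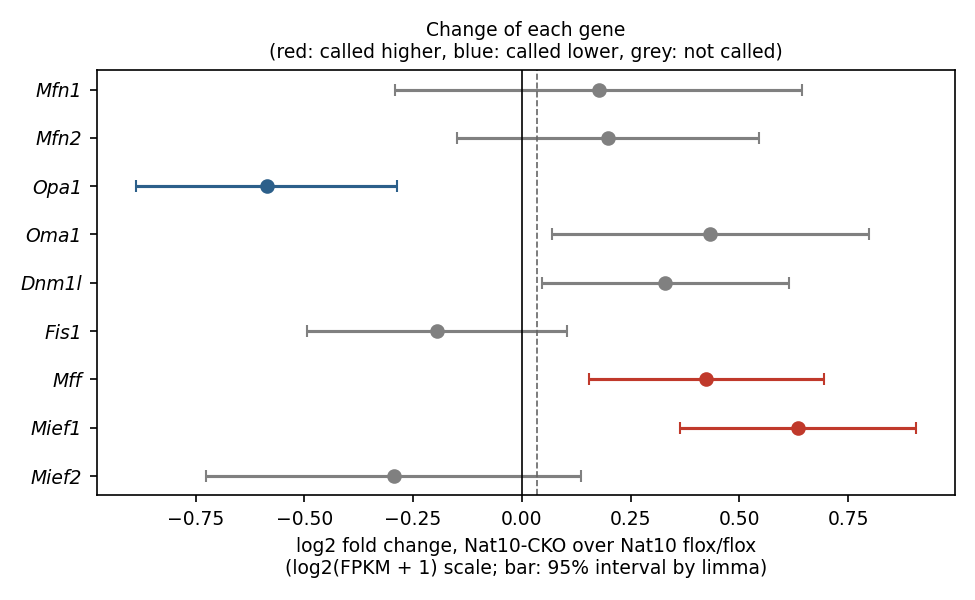
Log2 fold change of each of the 9 genes, Nat10-CKO over Nat10 flox/flox, on the log2(FPKM + 1) scale, with 95% intervals by limma (n = 3 libraries a group). The dashed line is the median of all tested genes (0.03): the interval of Opa1 lies below 0, those of Mief1, Mff, Oma1 and Dnm1l lie above 0, and Oma1 and Dnm1l missed the threshold after adjustment.

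Oma1 (gene ID 67013, plus strand of chromosome 4 from 103169072 to 103229066) had 2.73, 3.72 and 4.14 FPKM in libraries labelled Nat10-CKO, against 2.00, 2.63 and 2.37 FPKM in those labelled Nat10 flox/flox. The groups did not overlap, but Nat10-CKO replicate 1 lay just above Nat10 flox/flox replicate 2. The means were 3.53 ± 0.724 and 2.33 ± 0.319 FPKM (SD, n = 3 a group), and the log2 fold change of 0.43 ± 0.15 (SE; 95% interval 0.07 to 0.80) missed the threshold (adjusted p = 0.0615 by limma). It passed toward higher values without Nat10-CKO replicate 1 (0.57, adjusted p = 0.0159), without both libraries numbered 1 (0.49, 0.0263), with the protein-coding total made equal in all libraries (0.55, 0.0150), under quantile normalization (0.48, 0.0454), with a replicate block (0.43, 0.0477) and by limma-voom on recovered reads (0.59, 0.0445). Over all alternatives its adjusted p ran from 0.0150 to 0.158.

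Oma1 was the lowest of the 9 genes per deposited length, at 922 to 1594 reads a library. That length, 11342 bases, is 5.55 times the 2045 bases of its canonical transcript in GENCODE on GRCm39, which has 9 exons and codes for 521 residues. Counted over the canonical length, the same reads would give means of 19.6 FPKM in libraries labelled Nat10-CKO and 12.9 FPKM in those labelled Nat10 flox/flox. For the other 8 genes the deposited length was 0.528 (Mfn1) to 1.40 (Fis1) times the canonical one. The order of levels therefore rests on the length used, and not for Oma1 alone. Over canonical lengths Fis1, at 60.1 FPKM in libraries labelled Nat10-CKO and 69.4 FPKM in those labelled Nat10 flox/flox, would stand above Mfn1, at 46.2 FPKM under the Nat10-CKO label and 40.2 FPKM under the Nat10 flox/flox label. The length also bears on the tested change of Oma1, since a pseudocount of 1 weighs more on low values: its log2 fold change was 0.56 with a pseudocount of 0.1 (adjusted p = 0.0576 by limma).

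Mief1 (gene ID 239555, plus strand of chromosome 15 from 80118281 to 80137573), which encodes the DRP1 adaptor MiD51, had 10.0, 9.82 and 11.8 FPKM in libraries labelled Nat10-CKO, against 5.85, 6.32 and 7.11 FPKM in those labelled Nat10 flox/flox. The groups stood well apart. The means were 10.5 ± 1.07 and 6.43 ± 0.637 FPKM (SD, n = 3 a group), 1.64-fold higher, with a log2 fold change of 0.64 ± 0.11 (SE; 95% interval 0.36 to 0.91, adjusted p = 0.00553 by limma). Mief1 stayed higher and past the threshold under all 17 alternatives run (0.53 to 0.77, adjusted p 0.00137 to 0.0263).

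Mief2 (gene ID 237781, plus strand of chromosome 11 from 60619224 to 60623777) encodes the paralogous adaptor MiD49. It had 7.16, 10.4 and 11.1 FPKM in libraries labelled Nat10-CKO, against 10.8, 10.8 and 13.9 FPKM in those labelled Nat10 flox/flox. The groups overlapped, and Nat10-CKO replicate 1 was the lowest library. Its log2 fold change was -0.29 ± 0.18 (SE; 95% interval -0.73 to 0.14, adjusted p = 0.235 by limma).

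Mff (gene ID 75734, plus strand of chromosome 1 from 82702599 to 82730111), which encodes the mitochondrial fission factor, had 55.0, 54.6 and 62.2 FPKM in libraries labelled Nat10-CKO, against 38.9, 43.1 and 45.2 FPKM in those labelled Nat10 flox/flox. The groups did not overlap. The means were 57.2 ± 4.31 and 42.4 ± 3.19 FPKM (SD, n = 3 a group), 1.35-fold higher, with a log2 fold change of 0.42 ± 0.11 (SE; 95% interval 0.15 to 0.69, adjusted p = 0.0242 by limma). The call was lost without Nat10-CKO replicate 2 or 3 (adjusted p = 0.0554 and 0.0630), without Nat10 flox/flox replicate 1, 2 or 3 (0.0768, 0.0742 and 0.0506), under quantile normalization (0.223) and after dropping mitochondrially encoded genes and rescaling (0.0506). Its sign held under all 17 alternatives.

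Dnm1l (gene ID 74006, minus strand of chromosome 16 from 16130092 to 16176902), the gene of DRP1 itself, had 31.7, 37.2 and 39.8 FPKM in libraries labelled Nat10-CKO, against 27.0, 28.4 and 30.1 FPKM in those labelled Nat10 flox/flox. The groups did not overlap, but the log2 fold change of 0.33 ± 0.12 (SE; 95% interval 0.05 to 0.61) missed the threshold (adjusted p = 0.0663 by limma). It passed without Nat10-CKO replicate 1 (adjusted p = 0.0182), without both libraries numbered 1 (0.0373) and with protein-coding genes rescaled (0.00725). Over all alternatives its adjusted p ran from 0.00725 to 0.567, the highest under quantile normalization.

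Fis1 (gene ID 66437, plus strand of chromosome 5 from 136982129 to 136995088), an outer membrane protein with a conserved part in fission in yeast, had 42.8, 43.8 and 41.9 FPKM in libraries labelled Nat10-CKO, against 56.9, 43.7 and 47.8 FPKM in those labelled Nat10 flox/flox. The groups overlapped, and Nat10 flox/flox replicate 1 was the highest library. Its log2 fold change was -0.20 ± 0.12 (SE; 95% interval -0.49 to 0.10, adjusted p = 0.252 by limma), and it was called lower only under quantile normalization among the alternatives run (-0.44, adjusted p = 0.0313).

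Per deposited length the levels in the libraries labelled Nat10-CKO ran in the order Mfn2, Mfn1, Mff, Fis1, Dnm1l, Opa1, Mief1, Mief2 and Oma1. In that order the ranges of neighbouring genes overlapped between Mief1 and Mief2 alone. In the libraries labelled Nat10 flox/flox the order was Mfn2, Mfn1, Fis1, Mff, Dnm1l, Opa1, Mief2, Mief1 and Oma1. There the ranges overlapped between Fis1 and Mff and between Dnm1l and Opa1. Per deposited length Opa1 and Dnm1l, the inner membrane fusion gene and the fission gene, had means of 17.5 and 36.2 FPKM in libraries labelled Nat10-CKO and of 26.8 and 28.5 FPKM in those labelled Nat10 flox/flox. Over canonical lengths the means of Opa1 and Dnm1l would be 21.0 and 29.5 FPKM under the Nat10-CKO label and 32.1 and 23.2 FPKM under the Nat10 flox/flox label, so that Opa1 would stand above Dnm1l in the Nat10 flox/flox libraries.

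Ratios within a library do not depend on how libraries were scaled to each other. The ratio of Mief1 to Mief2 was 1.40, 0.948 and 1.06 in the libraries labelled Nat10-CKO, against 0.543, 0.584 and 0.511 in those labelled Nat10 flox/flox. The groups did not overlap, and the ratio of means was 2.08 (log2 difference 1.04, exact permutation p = 0.1, two-sided, the smallest that 3 against 3 can give). The log2 difference was 0.88 to 1.16 over 8 alternatives, all in the same direction. The ratio of Mfn1 to Mfn2 was 0.342, 0.412 and 0.507 in the libraries labelled Nat10-CKO, against 0.432, 0.447 and 0.387 in those labelled Nat10 flox/flox (log2 difference -0.021, exact permutation p = 1). The range of the Nat10 flox/flox libraries lay within that of the others. The ratio of Oma1 to Yme1l1, which encodes the other protease that cuts OPA1, was 0.144, 0.199 and 0.183 in the libraries labelled Nat10-CKO, against 0.133, 0.149 and 0.135 in those labelled Nat10 flox/flox (log2 difference 0.32, exact permutation p = 0.2). Those groups overlapped at Nat10-CKO replicate 1.

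**Figure D3:**
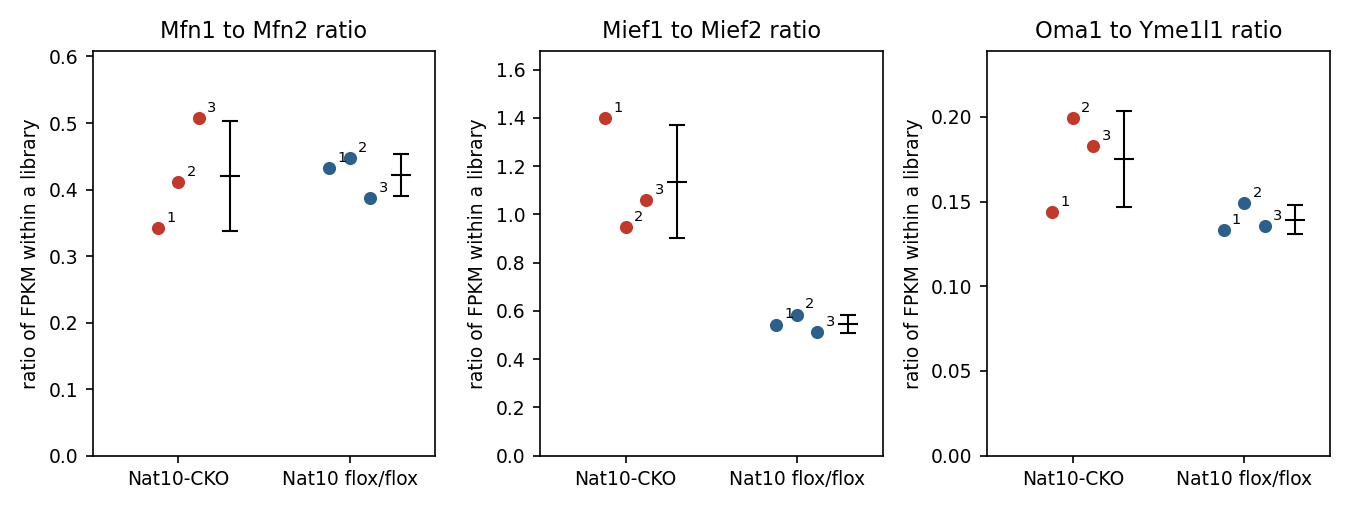
Ratio of FPKM of a pair of genes within each library, on a linear axis from 0, with the libraries labelled Nat10-CKO on the left and those labelled Nat10 flox/flox on the right (points numbered by replicate, bars mean ± SD, n = 3 a group). The Mief1 to Mief2 ratio lies at 0.948 to 1.40 under the Nat10-CKO label and at 0.511 to 0.584 under the Nat10 flox/flox label, and the other pairs overlap.

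Among the proteases and scaffolds around OMA1, 4 of 13 genes listed and tested rose and 1 fell (38.5% called, near the 40.5% of all tested genes; median log2 fold change 0.16, beside 0.03). Values from here on are means ± SD (n = 3 a group), and the lists were chosen with earlier results of these data known. Those that rose were Lonp1, the matrix protease, at 111.5 ± 19.1 FPKM in libraries labelled Nat10-CKO against 55.0 ± 5.03 FPKM in those labelled Nat10 flox/flox (adjusted p = 0.00331 by limma), Afg3l2, a subunit of the m-AAA protease (59.4 ± 6.78 FPKM under the Nat10-CKO label against 31.4 ± 2.94 FPKM under the Nat10 flox/flox label, 0.00248), Htra2, a protease of the intermembrane space (24.6 ± 2.50 FPKM under the Nat10-CKO label against 12.2 ± 2.17 FPKM under the Nat10 flox/flox label, 0.00358), and Parl, the rhomboid protease. Pmpcb, a subunit of the matrix peptidase that removes targeting sequences, fell to 29.2 ± 8.51 FPKM in libraries labelled Nat10-CKO, against 63.4 ± 8.25 FPKM in the libraries labelled Nat10 flox/flox (0.00992). Yme1l1 had 19.0, 18.7 and 22.7 FPKM in libraries labelled Nat10-CKO, against 15.0, 17.7 and 17.5 FPKM in those labelled Nat10 flox/flox, and missed the threshold (adjusted p = 0.144 by limma, log2 fold change 0.25 ± 0.12 SE). With the protein-coding total made equal 7 of the 13 were higher and 1 lower, when 3647 of all 11998 tested genes were higher and 1390 lower.

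A mixed list held Dele1, the eIF2 kinase genes Eif2ak1, Eif2ak2, Eif2ak3 and Eif2ak4, and also Pgam5 and Pink1. Of these 7 genes 2 rose and 1 fell (42.9% called, near the 40.5% of all tested genes, median log2 fold change -0.0059). Under quantile normalization 1 was higher and 2 lower, when 2514 of all 11996 tested genes were higher and 2254 lower. Dele1, whose product OMA1 cuts, had 29.6, 46.0 and 55.8 FPKM in libraries labelled Nat10-CKO, against 50.3, 61.8 and 67.6 FPKM in those labelled Nat10 flox/flox. The groups overlapped and the call was not made (adjusted p = 0.160 by limma, log2 fold change -0.48 ± 0.24 SE). Eif2ak1, the gene of HRI, had 16.3, 16.7 and 18.3 FPKM in libraries labelled Nat10-CKO, against 12.5, 13.1 and 13.9 FPKM in those labelled Nat10 flox/flox (adjusted p = 0.0273 by limma, log2 fold change 0.35 ± 0.10 SE). That call was kept under 9 of 17 alternatives, and its highest adjusted p was 0.230, under quantile normalization. Pgam5, a phosphatase of the inner membrane, rose to 30.0 ± 2.63 FPKM under the Nat10-CKO label against 15.9 ± 1.72 FPKM under the Nat10 flox/flox label (0.00203). Pink1, the kinase that marks damaged mitochondria for removal, fell to 121 ± 16.5 FPKM in libraries labelled Nat10-CKO, against 215 ± 10.9 FPKM in the libraries labelled Nat10 flox/flox (0.00389).

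Among accessory fission factors 7 of 13 tested genes rose and 2 fell (69.2% called, median log2 fold change 0.31), where 40.5% of all tested genes were called, 24.4% higher and 16.0% lower. A further 3 of the 16 listed genes (Gdap1, Mtfr2 and Fmn2) were under the filter. With a mean of at least 5 FPKM required, the list had 5 higher and 2 lower, when 2305 of all 7224 tested genes were higher and 1159 lower. Dnm2, a dynamin of the cell membrane and of late steps of fission, rose to 37.4 ± 1.13 FPKM in libraries labelled Nat10-CKO, against 15.9 ± 1.69 FPKM in those labelled Nat10 flox/flox (adjusted p = 0.000568 by limma). The ubiquitin ligase genes Mul1 (27.4 ± 5.15 FPKM under the Nat10-CKO label against 11.97 ± 1.36 FPKM under the Nat10 flox/flox label) and Marchf5 (29.6 ± 3.01 FPKM under the Nat10-CKO label against 15.96 ± 1.16 FPKM under the Nat10 flox/flox label) also rose. So did Bcl2l1, which encodes the survival protein BCL-XL (21.3 ± 2.55 FPKM under the Nat10-CKO label against 7.18 ± 1.51 FPKM under the Nat10 flox/flox label, adjusted p = 0.000933). Mtfp1, which encodes an inner membrane fission protein and was named after its values were seen, fell to 5.93, 20.7 and 27.4 FPKM in libraries labelled Nat10-CKO, against 61.8, 64.6 and 78.3 FPKM in those labelled Nat10 flox/flox (log2 fold change -2.08, adjusted p = 0.0163). Without Nat10-CKO replicate 1 its log2 fold change was -1.47. The call was lost with no filter on low values and when Nat10 flox/flox replicate 3 was left out (adjusted p = 0.0569, the higher of both). Without Nat10 flox/flox replicate 3 the list had 4 higher and 1 lower members, when 2265 of all 11986 tested genes were higher and 1162 lower.

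Accessory fusion factors gave 0 calls by limma among 4 tested genes, with 0 at an unadjusted p under 0.05 and 0 by limma-voom (median log2 fold change -0.084), where 40.5% of all tested genes were called. The list had 1 lower call under quantile normalization and 1 higher call with the protein-coding total made equal. Pld6 was under the filter. Slc25a46, an outer membrane carrier protein, was nearest the threshold at 20.2 ± 1.70 FPKM in libraries labelled Nat10-CKO and 17.4 ± 0.314 FPKM in those labelled Nat10 flox/flox (adjusted p = 0.145), with its sign turned under quantile normalization (-0.0064).

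Genes of the MICOS complex, which holds cristae junctions and works with OPA1, and of its outer membrane partners were called higher for 3 and lower for 2 of 12 (41.7% called, beside 40.5% of all tested genes; median log2 fold change -0.21). The balance turned with the scaling, to 1 higher and 5 lower under quantile normalization and to 2 higher and 5 lower both with mitochondrially encoded genes dropped and with scaling by total reads. The share of higher calls among all genes called also moved, from 60.4% to 52.7%, 48.7% and 55.8% in that order. The balance of the list also turned with libraries left out. The list had 2 higher and 3 lower without Nat10-CKO replicate 1, 2 higher and 4 lower without Nat10-CKO replicate 3, and 3 higher and 4 lower without both libraries numbered 1. Among all genes called the share of higher calls was then 61.4%, 59.3% and 60.3%. The subunit genes Apool and Micos10 fell, to 5.76 ± 1.39 and 34.3 ± 8.11 FPKM in libraries labelled Nat10-CKO, against 22.7 ± 3.60 and 59.3 ± 0.356 FPKM in those labelled Nat10 flox/flox (adjusted p = 0.000699 and 0.0129 by limma). Dnajc11, a partner of the complex, rose to 58.7 ± 17.4 FPKM in libraries labelled Nat10-CKO, against 11.6 ± 1.18 FPKM in the libraries labelled Nat10 flox/flox (adjusted p = 0.000808). Mtx1, a metaxin gene of the outer membrane, was higher at 23.7 ± 2.26 FPKM under the Nat10-CKO label against 16.6 ± 1.18 FPKM under the Nat10 flox/flox label (0.0138), and missed the threshold under quantile normalization and without Nat10 flox/flox replicate 2, where the list had 1 higher and 2 lower members (highest adjusted p 0.0797).

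Genes of a mixed list, of the outer membrane, protein import and mitochondrial content, were called higher for 2 and lower for 3 of 12 (41.7% called, near the 40.5% of all tested genes; median log2 fold change 0.15). Cs, citrate synthase, fell to 259 ± 55.3 FPKM in libraries labelled Nat10-CKO, against 522 ± 54.9 FPKM in those labelled Nat10 flox/flox, and the import receptor gene Tomm22 to 26.4 ± 3.88 FPKM under the Nat10-CKO label against 43.9 ± 1.17 FPKM under the Nat10 flox/flox label (adjusted p = 0.00654 and 0.00583 by limma). Slc25a4, the heart and muscle adenine nucleotide carrier, which was named after its values were seen, fell to 1611, 2029 and 2394 FPKM in libraries labelled Nat10-CKO, against 2816, 2975 and 3042 FPKM in those labelled Nat10 flox/flox (0.0482). Its paralogue Slc25a5 rose to 260.3 ± 4.55 FPKM under the Nat10-CKO label against 174.5 ± 13.8 FPKM under the Nat10 flox/flox label (0.00847). Vdac2, a pore of the outer membrane, was 347 ± 27.6 FPKM under the Nat10-CKO label against 238 ± 28.1 FPKM under the Nat10 flox/flox label (0.0223), and its call was kept under 12 of 17 alternatives. The list had 5 higher and 3 lower members without Nat10-CKO replicate 1, when 5055 of all 12011 tested genes were called. It had 1 higher and 2 lower without any of the Nat10 flox/flox replicates in turn and with no filter. Genes called were then 3894 of 11824, 3285 of 11967 and 3427 of 11986 without replicates 1, 2 and 3, and 4397 of 27977 with no filter.

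**Figure D4:**
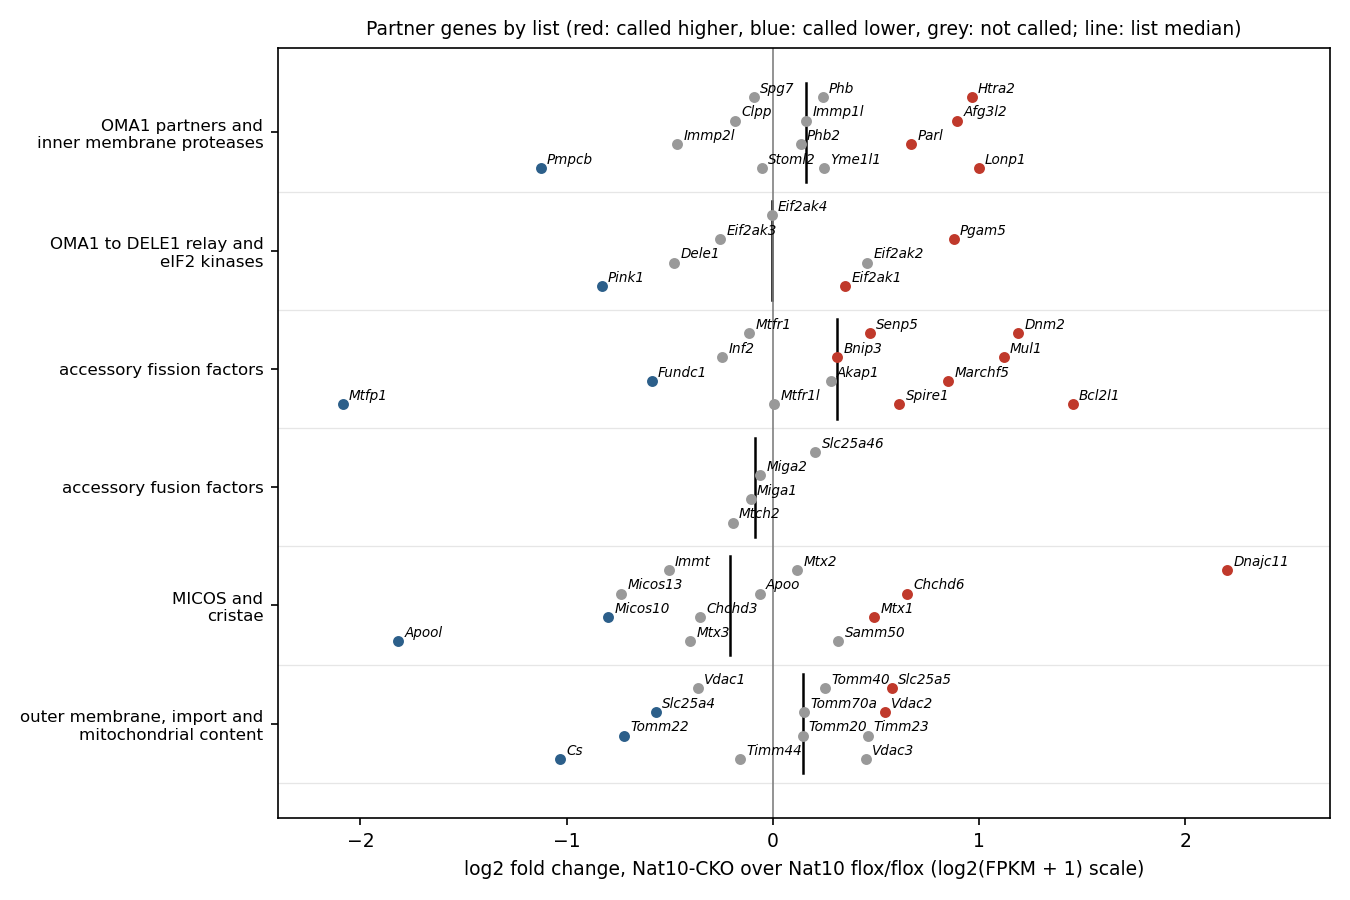
Log2 fold change, Nat10-CKO over Nat10 flox/flox on the log2(FPKM + 1) scale, of the tested genes of 6 lists around the fusion and fission machinery (n = 3 libraries a group). Each point is a gene, coloured by its limma call, and each black line is a list's median: the genes run from Mtfp1 at -2.08 to Dnajc11 at 2.20, and all 4 accessory fusion factors are grey (not called).

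The genes whose pattern over the 6 libraries was nearest to that of Opa1 were Phkb, Abcb10 and Mrps14, with mean absolute differences of 0.017, 0.036 and 0.038 in log2(FPKM + 1), each gene centred on its own mean. Those nearest to Oma1 were Hnrnpc, Usp15 and Ecpas, at 0.031, 0.032 and 0.042. They were taken from 11042 tested protein-coding genes.

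Counts by direction depend on the scaling between libraries. Leaving out the mitochondrially encoded genes and rescaling the rest moved the median log2 fold change of all tested genes to -0.059, and making the protein-coding total equal in all libraries moved it to 0.17, a share of higher calls of 48.7% and 72.4% beside 60.4%. Under these scalings, in that order, the log2 fold changes were -0.70 and -0.44 for Opa1, 0.53 and 0.77 for Mief1 and 0.31 and 0.58 for Mff. Opa1 lay below the median of each scaling, and Mief1 and Mff lay above it. The number of the 9 genes called was 3 as reported and ran from 2 to 5 over 17 alternatives, over which the count of all genes called ran from 3285 to 5055.

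**Figure D5:**
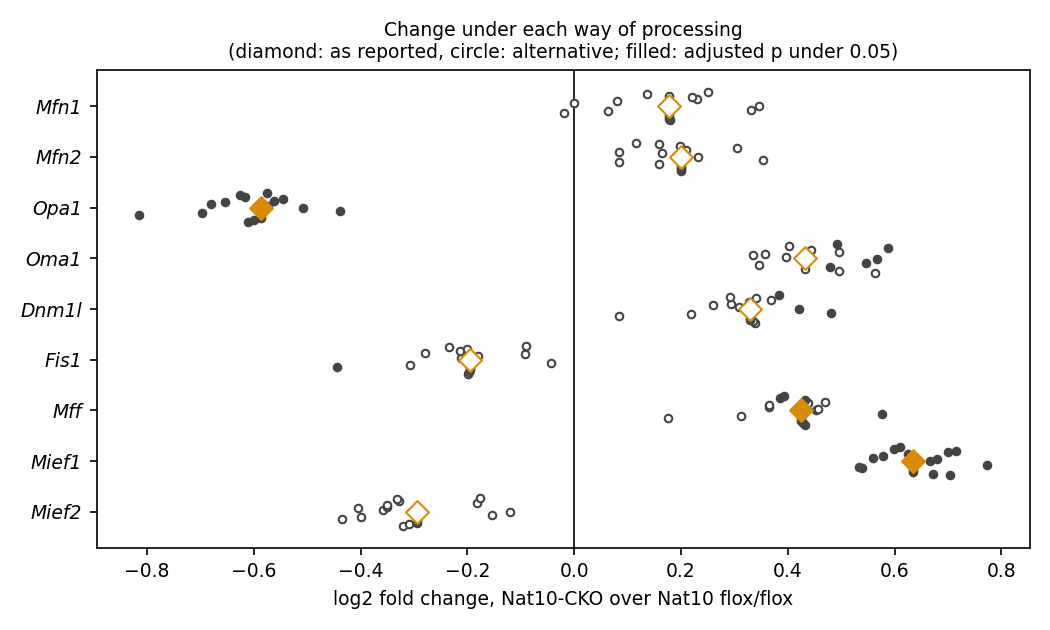
Log2 fold change of each of the 9 genes, Nat10-CKO over Nat10 flox/flox, as reported (diamonds) and under the alternatives run (circles: 16 for Oma1, 17 for each other gene), filled where the adjusted p was under 0.05. Opa1 and Mief1 are filled throughout, and Mfn1, Mfn2 and Mief2 are open throughout.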

How the data were processed

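Hearts of 10-day-old mice gave 6 poly-A selected, directional libraries, 3 a group, per the labels' protocols. Alignment was to GRCm39 by HISAT2 2.2.1 and counting by featureCounts 2.0.6, per the series' design text. CASAVA and DESeq2 1.42.0 are further tools in the submitters' processing notes. The authors deposited FPKM, 1 column a library, with gene lengths. The strand setting and the definition of length are not given in the sources used here. FPKM times length gave whole reads (tolerance 0.01) for 100% of the values, and the scaling equalled median-of-ratios size factors (ratio 1.0 in all 6).

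The test between groups was limma-trend (limma 3.58.1, R 4.3.3), two-sided, on log2(FPKM + 1) over genes with a mean of at least 1 FPKM. This scale understates changes of low genes such as Oma1. Folds are ratios of mean FPKM. The members and lists were chosen with earlier results of these data known. Named partner genes are the members of each list with the smallest adjusted p (up to 4) with Yme1l1, Dele1 and Eif2ak1, and likeness took 3 genes each for Oma1 and Opa1. Parl, Mtfp1, Slc25a4 and genes under the filter are named beyond this rule, after their values were seen. On simulated reads with 200 changed genes among 11961 tested, the test recovered 44% of those raised 1.5-fold and 98% of those raised 2-fold. The simulation gave every gene the same spread between replicates and changed far fewer genes than the 40.5% called here. Those rates therefore do not give the share recovered in this comparison. Ratios were compared by exact permutation (scipy 1.17.1) and figures drawn with matplotlib 3.10.9 in Python 3.11.15. Promoter sequences are from RefSeq (GRCm38.p6), which had windows for all 9 genes. The alternatives covered the pseudocount, the filter, the scaling, a replicate block and each library left out. Limma-voom on recovered reads, scaling by total reads and leaving out both libraries numbered 1 were added after the data were seen.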

Additional observations from a re-analysis of the deposited data

How the results depend on the processing

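The call of Opa1 (lower) and of Mief1 (higher) held under all 17 alternatives, and Mff was called under 10 of 17. The number of the 9 genes called was 5 (4 higher, 1 lower) with protein-coding genes rescaled, without Nat10-CKO replicate 1 and without both libraries numbered 1, and ran from 2 to 5 when each library was left out. In the first 3 of these settings 5037 of 11998, 5055 of 12011 and 4918 of 11823 tested genes were called. With protein-coding genes rescaled, the OMA1 partner list had 8 calls and the accessory fusion list 1, and under quantile normalization the fusion list had 1. With no filter the list of outer membrane, import and content genes had 3 calls. With each library left out, that list had 3 to 8 calls, the MICOS list 3 to 6 and the accessory fission list 5 to 10, and the cause was not tested. The log2 difference of the Mfn1 to Mfn2 ratio, -0.021, ran from -0.17 to 0.12 with each library left out, turning sign when Nat10-CKO replicate 1 (0.12) or Nat10 flox/flox replicate 2 (0.022) was left out. The Mfn1 log2 fold change turned sign under quantile normalization (-0.019) and ran from -0.00017 (without Nat10-CKO replicate 3) to 0.35 with each library left out. The count of all genes called, 4856, ran from 3285 to 5055. The labels give no shared litter or day for same-numbered libraries. The deviations of these libraries from their group means correlated at 0.065, 0.037 and 0.11, against -0.12 to 0.072 for libraries of different number. Of the Nat10-CKO libraries only replicate 2 was nearest to another number, Nat10 flox/flox replicate 1 (0.041). Whether same-numbered libraries are pairs was therefore not settled. With the replicate block 4390 genes were called and Oma1 passed (adjusted p = 0.0477 by limma), and the calls of the other 8 genes did not change; the Mief1 to Mief2 ratio then had an exact permutation p of 0.25, the smallest that 3 pairs can give. With a mean of at least 5 FPKM Oma1 was not tested. The planned edgeR and DESeq2 fits on recovered reads were not run, and limma-voom stood in for them. A p above the threshold does not show that Mfn1, Mfn2, Fis1 or Mief2 did not differ.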
